A study of Mus musculus with 20 samples.

Results

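The genes described here are 10 that encode the amyloid fibril, the membrane proteins and the ion and solute transporters of the melanosome, the organelle in which pigment cells make and store melanin. They were chosen by name (Pmel, Mlana, Gpnmb, Slc24a5, Slc45a2, Oca2, Gpr143, Tspan10, Trpm1 and Slc24a4), and all 10 were present among the 29956 gene rows of the deposited tables. The assay was RNA-seq of polyadenylated RNA from melb-a, a mouse line of melanoblasts, the precursors of melanocytes, with a wild-type genotype label, and every group was grown with 40 pM Fgf2, 10 ng/ml SCF and 10% serum. The 20 libraries formed 5 groups of 4: untransduced parental cells, lentiviral controls carrying a luciferase hairpin (shLuciferase) or a scrambled one (shScramble), and cells given either of 2 hairpins to Hira, the gene of a chaperone that deposits histone H3.3 (shHIRA I and shHIRA II). The 4 transduced groups had 16 h of virus with 8 µg/ml polybrene, then puromycin at 1 µg/ml. The design text calls the replicates independent and does not say whether each came from its own transduction, so the p-values measure the spread between these libraries.

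Melanosomes mature in steps. PMEL is cut and assembles into fibrils on which melanin is later laid down, and MLANA takes part in PMEL's passage to the early organelle. Melanin synthesis by tyrosinase depends on the pH and ion content of the lumen, which the transporters SLC24A5, SLC45A2 and OCA2 help to set, and mutations of these genes cause albinism in humans and pale coats in mice. GPR143 is a receptor of the melanosome membrane that limits organelle size and is the ocular albinism gene. Several of these genes are known targets of the transcription factor MITF in melanocytes.

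Libraries held between 14952948 and 20669874 estimated counts. Mean Hira TPM (± SD, n = 4) was 24.4 ± 5.85 for shHIRA I and 44.1 ± 7.14 for the libraries labelled shHIRA II. It was 50.0 ± 8.20 TPM with shLuciferase, 44.6 ± 6.74 TPM with shScramble and 51.8 ± 8.06 TPM in parental cells. A fall of Hira was detected with shHIRA I (log2 fold change −1.05, edgeR adjusted p = 5.15e-05) but none for those labelled shHIRA II (−0.19, edgeR adjusted p = 0.306), whose directions below therefore belong to the libraries so labelled. Hira shares exons with Gm28539 on the same strand, so its estimate is uncertain. Gm28539 was listed at 0 in all 4 libraries of either shHIRA group. Its mean was 3.01 ± 3.20 TPM in parental cells, 1.49 ± 1.13 TPM with shLuciferase and 2.24 ± 2.32 TPM with shScramble. What this means for the Hira estimate was not tested. The share of counts from mitochondrial mRNA was 1.23 to 9.58% with shHIRA I, 2.88 to 4.71% in the libraries labelled shHIRA II, 6.43 to 9.96% with the control hairpins and 5.50 to 8.88% in parental cells. Of 7 melanoblast markers, Mitf, Pax3, Kit, Dct and Tyrp1 were present in every library, Sox10 ranged from 0.00016 to 11.2 TPM, and Ednrb was listed at or near 0 throughout. In bulk RNA, fewer cells that express a gene and less of its RNA per cell cannot be told apart.

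In parental cells the melanosome genes covered a wide range of TPM, a library-scaled level corrected for transcript length. Mlana was highest at 1233 ± 103 TPM, followed by Gpnmb at 391 ± 86.2, Tspan10 at 207 ± 49.3, Slc24a5 at 163 ± 26.3, Slc45a2 at 133 ± 17.8, Pmel at 77.2 ± 13.1 and Gpr143 at 24.8 ± 3.52 (SD, n = 4 each). Trpm1 at 1.22 ± 1.09, Oca2 at 0.266 ± 0.0648 and Slc24a4 at 0.0973 ± 0.0608 TPM stood at the bottom. Neighbours in this order did not overlap between libraries except Tspan10 with Slc24a5 and Slc24a5 with Slc45a2. In the libraries labelled shHIRA II the order of means from the top was Mlana, Gpnmb, Slc45a2, Tspan10, Slc24a5, Gpr143 and Pmel. By mean, Slc45a2 stood above and Pmel below the neighbours they had in parental cells, but the ranges over libraries overlapped. Within each library labelled shHIRA II, Slc45a2 stood above Tspan10 and Slc24a5, and Pmel stood below Gpr143 except in replicate 3. In every parental library Tspan10 stood above Slc24a5 and Slc45a2, and Pmel above Gpr143. There Slc24a5 stood above Slc45a2 except in replicate 1. Pmel ranged from 4.63 to 17.0 TPM and Gpr143 from 8.22 to 16.3 TPM. Slc45a2 ranged from 43.2 to 90.2 TPM, Tspan10 from 19.5 to 62.7 TPM and Slc24a5 from 24.6 to 47.9 TPM. By mean TPM over all rows, the rank of Pmel was 1625 in parental cells, 3744 under shHIRA I and 7187 among those labelled shHIRA II.

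**Figure D1:**
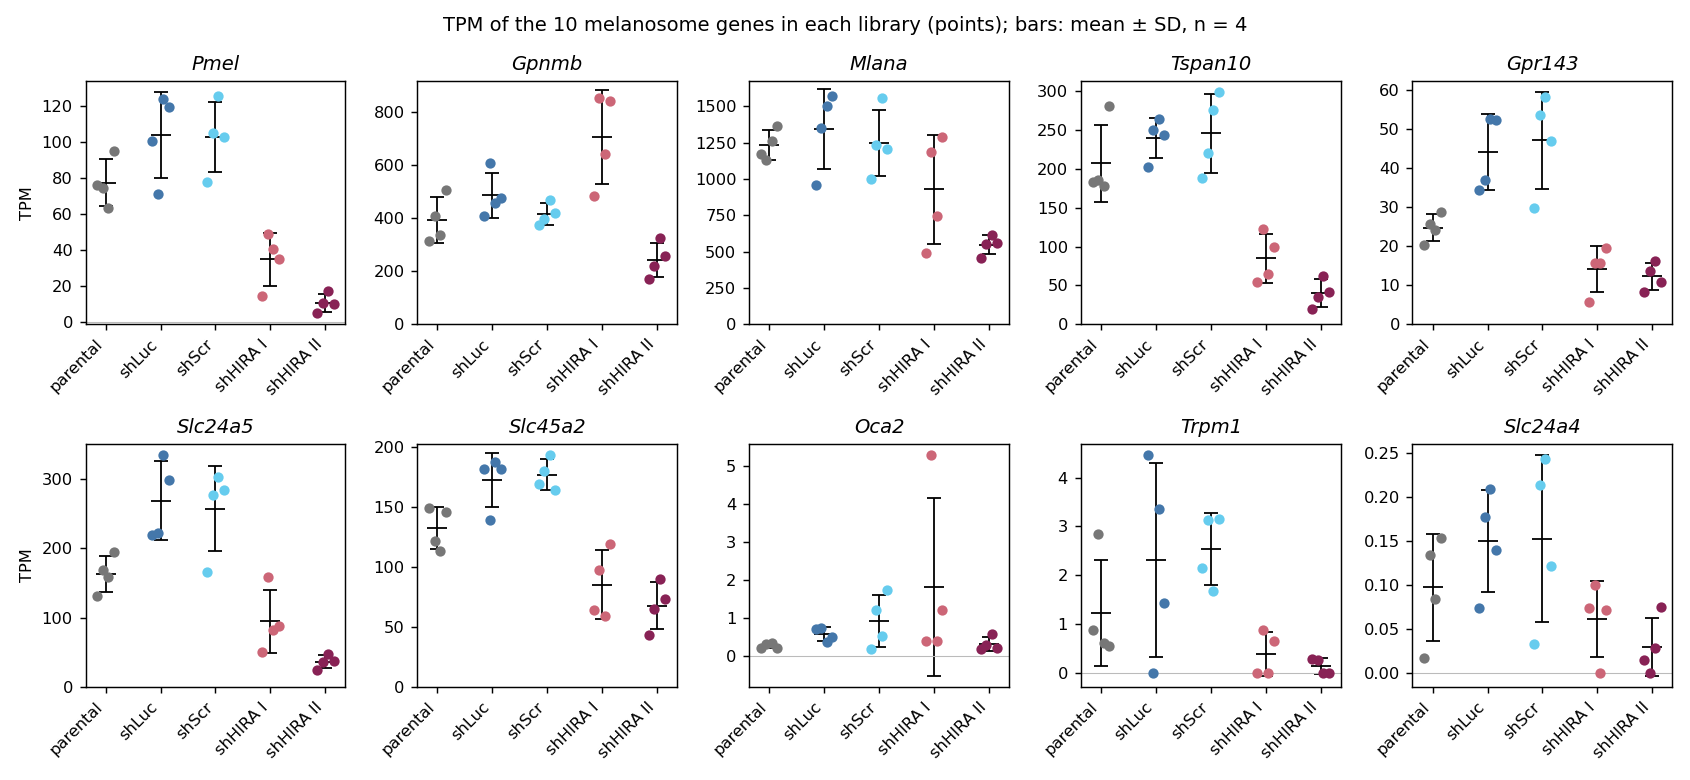
TPM of each of the 10 melanosome genes (vertical axes, linear and scaled per gene) in the 5 groups (horizontal axis), with points for libraries and bars for mean ± SD of 4. Pmel, Slc24a5, Slc45a2, Gpr143 and Tspan10 lie lower in all 8 shHIRA libraries than in any of the 8 control shRNA libraries, and Gpnmb is high with shHIRA I and low in the libraries labelled shHIRA II. The share of all genes that separate in this way was not counted.

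The mean of both Hira hairpin groups was set against the mean of both control hairpin groups with edgeR's quasi-likelihood test, since the study used both to knock down Hira; Hira was measurably lower in 1 of these 2 groups. Of the 9 genes with enough counts to be tested, 7 fell and none rose: Pmel, Slc24a5, Tspan10, Gpr143, Slc45a2, Mlana and Trpm1. Of all 13541 genes tested, 15.1% were called lower and 14.2% higher, at an adjusted p under 0.05. The median log2 fold change of the 9 was −1.87 and that of all tested genes 0.03. Pmel, Slc24a5, Slc45a2, Gpr143 and Tspan10 were called lower in each of the 4 contrasts of 1 Hira hairpin with 1 control hairpin, in which the share of all tested genes called lower was 5.66% (shHIRA I against shLuciferase), 6.93% (shHIRA I against shScramble), 13.9% (the libraries labelled shHIRA II against shLuciferase) and 13.7% (the same against shScramble). These contrasts share groups, and the share of all genes called lower in all 4 was not counted. The falls pooled over both hairpins were 5.76-fold for Pmel, 4.79-fold for Slc24a5, 4.501-fold for Tspan10, 3.66-fold for Gpr143, 2.47-fold for Slc45a2 and 1.94-fold for Mlana. Gpnmb and Oca2 were not called in the pooled contrast, and Slc24a4 had too few counts for the fit.

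With shHIRA I alone, 5 of the 9 fell and 1, Gpnmb, rose, where 8.87% of all tested genes were called lower and 10.9% higher. In the libraries labelled shHIRA II 8 fell and none rose, where 16.7% of tested genes were called lower and 15.7% higher. The medians of the 9 were −1.59 and −1.97 on the log2 scale, respectively, and those of all tested genes 0.05 and 0.02. Both contrasts use the same 8 control libraries. The difference between hairpins, shHIRA II minus shHIRA I, was called lower for 6 of the 9 (Pmel, Gpnmb, Slc24a5, Tspan10, Mlana and Oca2) and higher for none, against 12.4% and 8.60% of all tested genes. Hira RNA, whose estimate is uncertain, was higher in the libraries labelled shHIRA II than with shHIRA I (0.86, edgeR adjusted p = 0.00096). A link between these differences and the Hira level was not tested. With only the 8 shHIRA libraries in the fit, the difference was called for 3 of these 6 genes, Pmel, Gpnmb and Slc24a5. Over all genes that fit called 703 lower and 385 higher of 12905 tested.

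**Figure D2:**
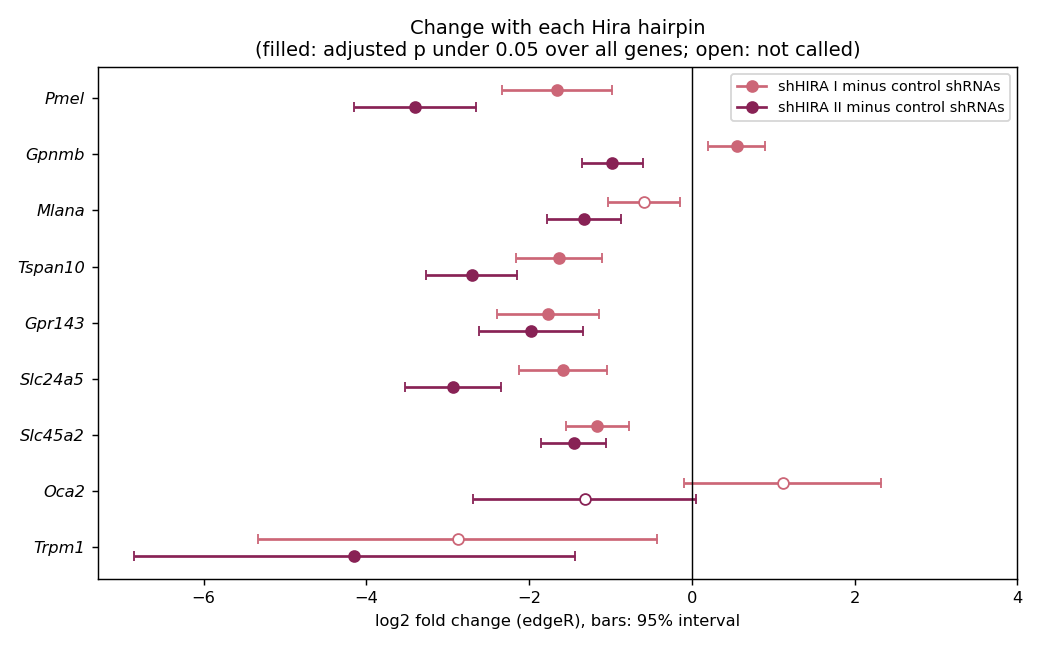
Log2 fold change of the 9 tested melanosome genes with each Hira hairpin against the mean of the control hairpins (horizontal axis), with approximate 95% intervals from the edgeR F statistic. Filled points passed at an adjusted p under 0.05. Gpnmb lies at 0.55 with shHIRA I and at −0.97 in the libraries labelled shHIRA II, on opposite sides of 0, and Pmel lies farther from 0 in the latter (−3.40 against −1.65).

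Pmel, the fibril protein (chromosome 10, 128704195 to 128720238, plus strand, GRCm38, protein-coding), fell with both hairpins. Pmel stood at 76.1, 74.6, 63.3 and 94.8 TPM in the 4 parental libraries. It stood at 100.7, 70.9, 124 and 119 TPM with shLuciferase and at 77.5, 105, 125 and 103 TPM with shScramble. In the shHIRA I libraries it was 14.2, 48.8, 40.6 and 34.7 TPM, and in those labelled shHIRA II 4.63, 10.1, 17.0 and 9.95 TPM. Every shHIRA library lay below every control shRNA and every parental library, and replicate 1 was the lowest of each shHIRA group. The fall was 3.14-fold with shHIRA I (log2 fold change −1.65, SE 0.32, edgeR adjusted p = 0.00131) and 10.6-fold in the libraries labelled shHIRA II (−3.40, SE 0.36, edgeR adjusted p = 3.48e-06). Between hairpins Pmel differed by −1.75 on the log2 scale (SE 0.36, edgeR adjusted p = 0.00207). About 3.54% of the 31-base stretches of its annotated transcripts occur in transcripts of other genes, most of them in Dgka, which overlaps Pmel on the opposite strand.

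Gpnmb encodes a membrane glycoprotein related to PMEL, found in melanosomes and, in other cells, in lysosomes of macrophages (chromosome 6, 49036546 to 49070929, plus strand). Gpnmb stood at 313, 409, 336 and 505 TPM in the 4 parental libraries. With shLuciferase the values were 406, 606, 455 and 475 TPM, and with shScramble 373, 398, 468 and 420.4 TPM. The shHIRA I libraries held 484, 852, 639.9 and 839.7 TPM, against 171, 220.1, 323 and 258 TPM in the libraries labelled shHIRA II. With shHIRA I replicates 2, 3 and 4 lay above every control shRNA library, while replicate 1 lay within their range. The libraries labelled shHIRA II all lay below the controls. Gpnmb thus rose 1.47-fold with shHIRA I (log2 fold change 0.55, SE 0.17, edgeR adjusted p = 0.0248) and fell 1.96-fold in the libraries labelled shHIRA II (−0.97, SE 0.18, edgeR adjusted p = 0.000447). The difference between them was −1.53 (SE 0.20, edgeR adjusted p = 6.55e-05), the smallest adjusted p of the 9 genes in that contrast. The rise with shHIRA I was not called without a filter on low counts (0.53, adjusted p = 0.0506) or without the 2 libraries of lowest mitochondrial share (0.48, adjusted p = 0.0647). It was also not called without shHIRA I replicate 2 (0.51, adjusted p = 0.0572), replicate 3 (0.48, adjusted p = 0.0667) or replicate 4 (0.47, adjusted p = 0.0871), and not against shLuciferase alone (0.49, edgeR adjusted p = 0.121).

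Summed levels of 6 fibroblast markers were high and low in the same groups as Gpnmb, at 50.3 to 110 TPM with shHIRA I, 5.22 to 10.9 TPM in the libraries labelled shHIRA II, 20.4 to 39.9 TPM with the control hairpins and 18.8 to 33.3 TPM in parental cells. Of the 5 tested, Col1a1, Col1a2 and Dcn rose with shHIRA I while Pdgfra (−0.10) and Lum (−0.85) were not called. In the libraries labelled shHIRA II, 4 of the 5 fell and Col1a1 was not called (0.58). Of the 6, 4 reached a mean of 1 TPM, Col3a1 was at or near 0, and none was at 0 in every library. Markers of macrophages and leukocytes, which also express Gpnmb, summed to 10.3 to 14.7 TPM with shHIRA I, 5.34 to 7.70 TPM in the libraries labelled shHIRA II, 8.08 to 10.3 TPM with the control hairpins and 5.36 to 9.02 TPM in parental cells. Of the 5 with a row, C1qa was at 0 in every library and 1, Lyz2, reached a mean of 1 TPM. Lyz2 made up most of the sum, with a mean of 11.9 TPM under shHIRA I. Lyz2 (0.32) and Csf1r (0.77), the 2 tested, were not called with shHIRA I. In the libraries labelled shHIRA II Lyz2 fell (−0.52, edgeR adjusted p = 0.0384) and Csf1r was not called (0.58). The part of such cells in the Gpnmb result was not tested.

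Mlana, Tspan10 and Gpr143 encode membrane proteins. Mlana, a small membrane protein also known as Melan-A (chromosome 19, 29697824 to 29708634, plus strand), was the most abundant. Mlana stood at 1171, 1132, 1265 and 1363 TPM in the 4 parental libraries. The shLuciferase libraries had 959, 1350.2, 1499.8 and 1568 TPM and the shScramble libraries 1001, 1235, 1555 and 1207 TPM. Levels were 493, 1186, 748 and 1290.0 TPM with shHIRA I and 457, 553, 617 and 559.9 TPM in libraries labelled shHIRA II. With shHIRA I replicates 1 and 3 lay below the controls and replicates 2 and 4 within their range, whereas the libraries labelled shHIRA II all lay below. The change was not called with shHIRA I (−0.59, SE 0.21, edgeR adjusted p = 0.0556), although a fall was called by DESeq2 (−0.59, adjusted p = 0.0290), without shHIRA I replicate 4 (−0.77, adjusted p = 0.0253), without shLuciferase replicate 1 (−0.66, adjusted p = 0.0324) and without shScramble replicate 1 (−0.65, adjusted p = 0.0376). Mlana fell 2.50-fold in the libraries labelled shHIRA II (−1.32, SE 0.22, edgeR adjusted p = 0.000187). The difference between hairpins (−0.73, edgeR adjusted p = 0.0345) was lost without a filter on low counts (−0.71, adjusted p = 0.0602), with only these 8 libraries in the fit (−0.73, adjusted p = 0.147) and in fits on TPM, where it was −0.67 with a limma adjusted p of 0.0530 at a pseudocount of 1, and when any of shHIRA I replicates 2 and 4 and shHIRA II replicates 1, 3 and 4 was left out (−0.73 to −0.56, adjusted p = 0.0657 to 0.131).

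Tspan10, a tetraspanin of the subgroup that binds the protease ADAM10 (chromosome 11, 120442644 to 120446950, plus strand), fell with both hairpins. Tspan10 stood at 184, 186, 178 and 281 TPM in the 4 parental libraries. Levels with shLuciferase were 203, 249.8, 264 and 243 TPM, and with shScramble 189, 219.9, 276 and 299 TPM. Under shHIRA I the values were 54.2, 123, 64.3 and 98.9 TPM, and those of the libraries labelled shHIRA II were 19.5, 35.7, 62.7 and 41.4 TPM. All shHIRA libraries lay below all control and parental libraries, and replicate 1 was again the lowest with either hairpin. The fall was 3.10-fold with shHIRA I (log2 fold change −1.63, SE 0.25, edgeR adjusted p = 0.000164) and 6.53-fold in the libraries labelled shHIRA II (−2.71, SE 0.27, edgeR adjusted p = 2.01e-06). The hairpins differed by −1.07 (SE 0.27, edgeR adjusted p = 0.00875), a call that ended with only these 8 libraries in the fit (−1.07, adjusted p = 0.0803). Adam10 itself fell by 1.03 on the log2 scale in the pooled contrast (edgeR adjusted p = 0.000495). It was not called with shHIRA I (−0.20, edgeR adjusted p = 0.590) and fell in the libraries labelled shHIRA II (−1.86, edgeR adjusted p = 2.97e-05).

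Gpr143, the melanosomal receptor (chromosome X, 152781921 to 152808646, plus strand), fell with either hairpin. Gpr143 stood at 20.4, 25.8, 24.1 and 28.9 TPM in the 4 parental libraries. It stood at 34.4, 37.1, 52.7 and 52.4 TPM with shLuciferase and at 29.9, 53.7, 58.3 and 46.9 TPM with shScramble. For shHIRA I the level was 5.75, 15.7, 15.6 and 19.5 TPM, and for libraries labelled shHIRA II 8.22, 13.7, 16.3 and 10.7 TPM. The shHIRA libraries lay below all others, and every control shRNA library lay above every parental library. The fall was 3.41-fold with shHIRA I (log2 fold change −1.77, SE 0.30, edgeR adjusted p = 0.000398) and 3.93-fold in the libraries labelled shHIRA II (−1.97, SE 0.30, edgeR adjusted p = 9.99e-05). The level in the libraries labelled shHIRA II was 86.7% of that with shHIRA I (95% interval 54.3 to 138%, edgeR adjusted p = 0.701), an interval that leaves room for a difference in either direction.

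Among the transporters, Slc24a5, a potassium-dependent sodium and calcium exchanger (chromosome 2, 125068124 to 125088677, plus strand), fell with both hairpins. Slc24a5 stood at 131, 168, 158 and 195 TPM in the 4 parental libraries. With shLuciferase the values were 219, 222, 335 and 297 TPM, and with shScramble 166, 276, 302 and 284 TPM. Cells with shHIRA I had 50.8, 158, 82.2 and 88.1 TPM, and libraries labelled shHIRA II had 24.6, 36.4, 47.9 and 36.8 TPM. The highest shHIRA I library, replicate 2, lay just below the lowest control library, and the libraries labelled shHIRA II lay below all of these. The fall was 3.002-fold with shHIRA I (log2 fold change −1.59, SE 0.26, edgeR adjusted p = 0.000275) and 7.65-fold in the libraries labelled shHIRA II (−2.94, SE 0.28, edgeR adjusted p = 1.69e-06), and the hairpins differed by −1.35 (SE 0.28, edgeR adjusted p = 0.00237). Transcripts of Myef2, which overlaps Slc24a5 on the opposite strand, hold 37.2% of its 31-base stretches, so the split of reads between the 2 genes is uncertain if strand was not used. Myef2 also fell (−0.71 pooled, edgeR adjusted p = 0.00107). With the counts of both genes summed, a fit chosen after the overlap was seen, the fall stayed called with shHIRA I (−1.25, adjusted p = 0.000118) and in the libraries labelled shHIRA II (−2.33, adjusted p = 5.69e-07).

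Slc45a2, a proton-coupled sugar transporter family member needed for melanosome pH (chromosome 15, 11000721 to 11029233, plus strand), also fell. Slc45a2 stood at 149, 122, 113 and 146 TPM in the 4 parental libraries. The shLuciferase libraries had 182, 139.6, 188 and 182 TPM and the shScramble libraries 169, 180.4, 194 and 165 TPM. Levels with shHIRA I were 64.6, 97.9, 58.9 and 119.7 TPM, while those labelled shHIRA II had 43.2, 64.7, 90.2 and 73.7 TPM. All shHIRA libraries lay below all control shRNA libraries, but replicate 4 of shHIRA I lay within the parental range. The fall was 2.23-fold with shHIRA I (log2 fold change −1.16, SE 0.19, edgeR adjusted p = 0.000261) and 2.74-fold in the libraries labelled shHIRA II (−1.45, SE 0.19, edgeR adjusted p = 2.28e-05). The level in the libraries labelled shHIRA II was 81.6% of that with shHIRA I (95% interval 60.6 to 109.8%, edgeR adjusted p = 0.338), so a difference between hairpins was not detected.

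The remaining 3 transporter and channel genes were barely expressed. Oca2, the pink-eyed dilution gene for a melanosomal anion channel (chromosome 7, 56239760 to 56536518, plus strand), had between 6.7 and 191.2 estimated counts a library. Oca2 stood at 0.209, 0.306, 0.336 and 0.212 TPM in the 4 parental libraries. Levels with shLuciferase were 0.708, 0.732, 0.361 and 0.489 TPM, and with shScramble 0.187, 1.19, 0.528 and 1.72 TPM. In shHIRA I cells the gene stood at 0.379, 5.28, 0.382 and 1.21 TPM, and in those labelled shHIRA II at 0.169, 0.272, 0.563 and 0.211 TPM. Replicate 2 of shHIRA I stood far above the other 19 libraries. Neither hairpin was called against the controls (shHIRA I 1.12, edgeR adjusted p = 0.192; libraries labelled shHIRA II −1.32, edgeR adjusted p = 0.133). Without that library the shHIRA I value was −0.21. The call between hairpins (−2.43, SE 0.74, edgeR adjusted p = 0.0237) was lost without it (−1.11, adjusted p = 0.246) and without shHIRA II replicate 1 (−2.21, adjusted p = 0.0768), replicate 2 (−2.47, adjusted p = 0.0521) or replicate 4 (−2.24, adjusted p = 0.0704). It was also lost with only these 8 libraries in the fit (−2.41, adjusted p = 0.0997), with the mitochondrial covariate (−1.31, adjusted p = 0.140) and in all 3 limma fits on TPM (adjusted p = 0.110 to 0.169).

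Trpm1, a cation channel known from melanocytes and retinal bipolar cells whose intron holds the microRNA gene Mir211 (chromosome 7, 64153835 to 64269775, plus strand), was listed at or within rounding of 0 counts in 5 libraries. These were replicate 2 of shLuciferase, replicates 1 and 3 of shHIRA I and replicates 3 and 4 of shHIRA II. In the other libraries Trpm1 stood at 0.875, 2.84, 0.615 and 0.541 TPM in parental cells, at 4.47, 3.37 and 1.43 TPM with shLuciferase and at 2.14, 3.13, 1.68 and 3.16 TPM with shScramble. It stood at 0.870 and 0.638 TPM in the remaining shHIRA I libraries and at 0.282 and 0.256 TPM in those labelled shHIRA II. A count of 0 allows up to 3 counts, or 0.145 to 0.201 CPM (the count scaled to library size) over the libraries, for counting error only. Trpm1 was called lower in the libraries labelled shHIRA II (−4.15, SE 1.30, edgeR adjusted p = 0.0193) and not with shHIRA I (−2.88, SE 1.17, edgeR adjusted p = 0.0937), and the difference between hairpins was not called (−1.27, edgeR adjusted p = 0.541). The first call ended without shHIRA II replicate 3 (−3.71, adjusted p = 0.0517) or replicate 4 (−3.72, adjusted p = 0.0538), and shHIRA I was called lower without shLuciferase replicate 2 (−3.09, adjusted p = 0.0354) and in all 3 limma fits on TPM (adjusted p = 0.0209 to 0.0456).

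Slc24a4, a paralog of Slc24a5 linked to human pigmentation and to enamel (chromosome 12, 102128733 to 102267091, plus strand), had at most 14.6 estimated counts in a library and did not pass the filter on low counts. It stood at 0.0744, 0.177, 0.209 and 0.140 TPM with shLuciferase, 0.0335, 0.213, 0.243 and 0.121 TPM with shScramble and 0.0171, 0.134, 0.0846 and 0.153 TPM in parental cells. It was 0.0745, 0.1004, 0 and 0.0717 TPM with shHIRA I, and 0.0146, 0, 0.0288 and 0.0752 TPM in libraries labelled shHIRA II. The groups overlapped. Over both hairpins the mean was 0.0456 ± 0.0393 TPM against 0.151 ± 0.0728 TPM in the control shRNA libraries (SD, n = 8 each; two-sided exact permutation p = 0.00388, adjusted over 4 comparisons 0.0155). The same test gave an adjusted p of 0.0727 for shHIRA I (exact permutation), 0.0323 for the libraries labelled shHIRA II and 0.230 for the control hairpins against parental cells, at levels near that of a few reads a library.

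The heat map of all tested melanosome genes shows the libraries side by side in log2 CPM. On this scale replicate 1 was the lowest library of its group for Gpnmb, Gpr143 and Slc24a5 in all 5 groups and for Mlana and Tspan10 in the 4 transduced groups. It was also the lowest for Pmel and Slc45a2 with shScramble, with shHIRA I and in the group labelled shHIRA II. When the mitochondrial mRNA share entered the fit as a covariate, the log2 fold changes pooled over both hairpins were −2.72 for Pmel, −2.22 for Slc24a5, −2.13 for Tspan10, −2.06 for Gpr143, −1.31 for Slc45a2 and −0.93 for Mlana, and all 6 stayed called. Over all genes the pooled contrast of that fit called 1577 lower and 1418 higher of 13541 tested. Trpm1 was then not called, pooled (−2.91, adjusted p = 0.0764) or for the libraries labelled shHIRA II (−3.09, adjusted p = 0.193), and Oca2 was called higher with shHIRA I (1.48, adjusted p = 0.0337).

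**Figure D3:**
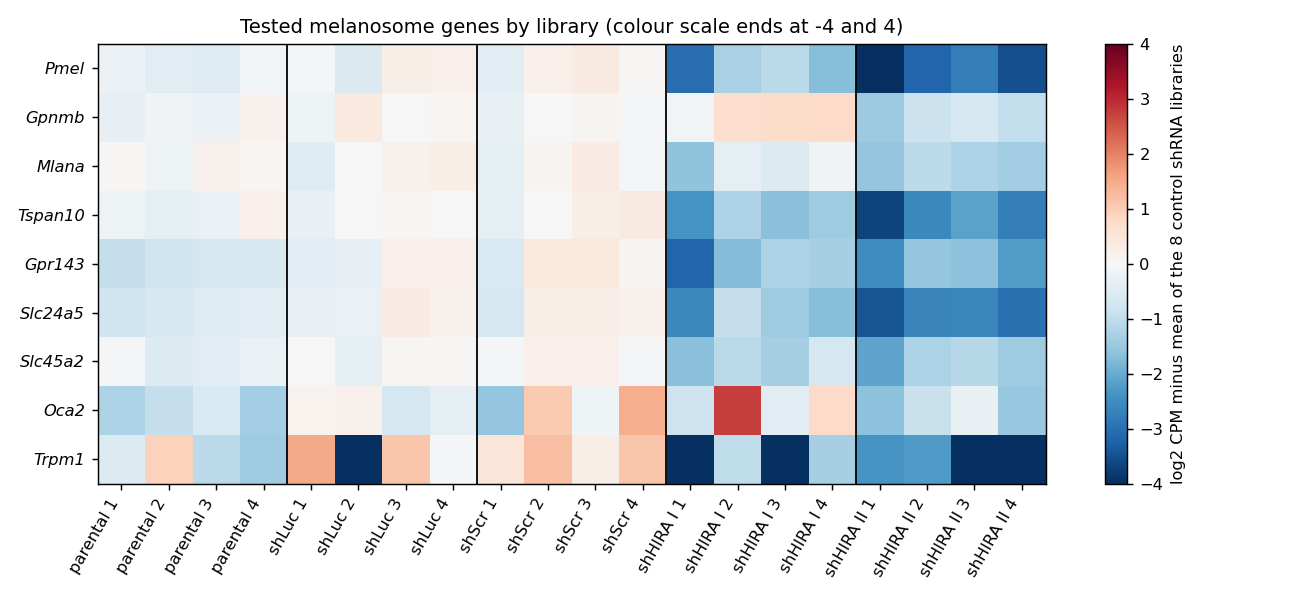
Log2 CPM of the 9 tested melanosome genes (rows) in the 20 libraries (columns), as difference from the mean of the 8 control shRNA libraries, blue for lower and red for higher, with colours ending at −4 and 4. Blue fills the shHIRA columns for Pmel, Tspan10, Gpr143, Slc24a5 and Slc45a2, while the Gpnmb row is red in shHIRA I replicates 2 to 4 and blue in the libraries labelled shHIRA II.

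Parental cells give a second reference without virus. The contrast of both control shRNA groups with parental cells asks what transduction does, and none of the 9 tested genes was called by edgeR, with 2 at an unadjusted p under 0.05, Gpr143 (0.81, SE 0.28, adjusted p = 0.133) and Slc24a5 (0.62, SE 0.25, adjusted p = 0.191). DESeq2 and limma on TPM called none either. Of all tested genes 3.62% were called in that contrast. The median log2 fold change of the 9 was 0.35 and that of all tested genes 0.006, and only 1 of the 9 was negative. Gpr143 was called with only the groups compared in the fit (0.81, adjusted p = 0.0242) and without shHIRA I replicate 1 (0.81, adjusted p = 0.0453). Between shScramble and shLuciferase none of the 9 was called by edgeR, none had an unadjusted p under 0.05, and none was called by DESeq2 or limma; the share of all genes called by edgeR was 0.00%.

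Against parental cells, 6 of the 9 were lower in both shHIRA groups pooled and none higher, where 12.0% of tested genes were called lower and 12.5% higher. The median of the 9 was −1.06 on the log2 scale and that of all tested genes 0.005, beside −1.87 for the 9 against the control hairpins. The 6 were Pmel (−2.18, SE 0.29), Tspan10 (−2.01, SE 0.22), Slc24a5 (−1.64, SE 0.23), Gpr143 (−1.06, SE 0.27), Slc45a2 (−0.99, SE 0.17) and Mlana (−0.96, SE 0.20), with edgeR adjusted p between 9.38e-06 and 0.00755. Against the control hairpins the pooled values were −1.87 for Gpr143 and −2.26 for Slc24a5, the 2 genes with the smallest unadjusted p for transduction. Gpnmb kept its opposite directions against parental cells, at 0.68 with shHIRA I (edgeR adjusted p = 0.0226) and −0.84 in the libraries labelled shHIRA II (edgeR adjusted p = 0.00363). Oca2 was called higher with shHIRA I than in parental cells (2.47, SE 0.74, edgeR adjusted p = 0.0267), a contrast that includes the high replicate 2. These contrasts share the shHIRA libraries with those above.

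**Figure D4:**
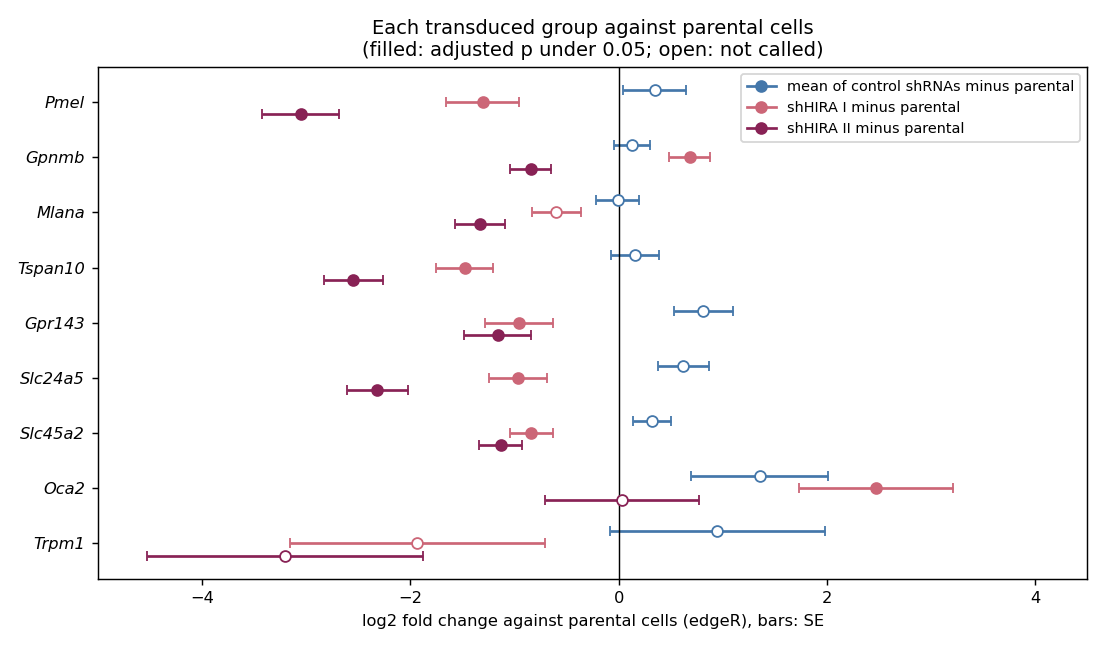
Log2 fold change of the 9 tested melanosome genes against parental cells (horizontal axis) for the mean of the control hairpins and for each Hira hairpin, with approximate SE from the edgeR F statistic. Filled points passed at an adjusted p under 0.05. No control point is filled, and Gpr143 lies at 0.81 for the control hairpins and at −0.96 with shHIRA I.

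Sequences upstream of the start sites are shown for 3 genes that differ in their response: Slc24a5 and Tspan10, which fell with both hairpins, and Gpnmb, which moved in opposite directions. RefSeq promoters (build GRCm38.p6) were at hand for 6 of the 10 genes, in 7 windows since Trpm1 has 2. Pmel, Mlana, Slc45a2 and Gpr143 are named only. Capitals mark matches, on either strand, to the E-box letters CATGTG, a kind of E-box that MITF is known to bind, to the E-box letters CACGTG and to the letters TGANTCA. The last are a loose form of the AP-1 site, in which N stands for any base. Each run is the 250 bases before the annotated start, on the plus strand: Slc24a5 chr2:125067877-125068126, Tspan10 chr11:120442381-120442630 and Gpnmb chr6:49036268-49036517.
Slc24a5: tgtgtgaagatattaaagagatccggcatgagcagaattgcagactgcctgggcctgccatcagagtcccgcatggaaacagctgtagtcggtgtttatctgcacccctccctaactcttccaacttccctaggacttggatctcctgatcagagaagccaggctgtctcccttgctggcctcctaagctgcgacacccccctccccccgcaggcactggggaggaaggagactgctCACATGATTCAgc
Tspan10: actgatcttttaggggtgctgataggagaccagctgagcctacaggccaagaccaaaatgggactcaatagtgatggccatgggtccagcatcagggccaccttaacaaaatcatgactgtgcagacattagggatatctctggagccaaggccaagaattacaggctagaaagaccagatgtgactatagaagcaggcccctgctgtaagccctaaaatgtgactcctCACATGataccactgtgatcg
Gpnmb: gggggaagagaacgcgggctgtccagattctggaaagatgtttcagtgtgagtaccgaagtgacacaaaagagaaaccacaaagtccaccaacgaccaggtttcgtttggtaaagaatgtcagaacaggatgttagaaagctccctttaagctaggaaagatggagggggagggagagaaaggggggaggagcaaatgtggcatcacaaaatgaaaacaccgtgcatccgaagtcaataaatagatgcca
The CATGTG match began 13 bases before the start of Slc24a5 and 21 bases before that of Tspan10. In Slc24a5 a TGANTCA match, with T at the N, began 9 bases before the start and shares letters with the CATGTG match. None of the 3 motifs was found in the Gpnmb window. CATGTG was present in 4 of the 7 windows (Slc24a5, Tspan10, Oca2 and 1 of Trpm1) and in 12.3% of all 32851 promoter windows of this length, and CACGTG in 2 of 7 (Slc24a4 and the other Trpm1 window) and in 6.02% of all. TGANTCA was found in 1 of 7 and in 6.75% of all. A match describes letters in the window and shows no binding. The 3 printed windows were picked by their response, so they cannot show a link between motif and response. Oca2, which has a CATGTG match, was not called with either hairpin against the controls. Trpm1, which also has one, was called lower only in the libraries labelled shHIRA II. A link between motifs and expression was not tested.

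Other pigment cell genes were listed by role, with earlier results of these data known, to set the melanosome genes beside their pathway. In the contrast pooled over both hairpins all 3 melanin enzymes fell (Dct −2.61, Tyr −3.75, Tyrp1 −2.41). With shHIRA I alone Dct (−2.51) and Tyr (−2.73) fell and Tyrp1 was not called (−1.05, edgeR adjusted p = 0.0866). Among 5 genes of melanosome transport 4 fell (median −1.82), the membrane organiser Mreg (−1.82), the small GTPase Rab27a (−1.97), its effector Sytl2 (−2.01) and the motor Myo5a (−1.28), whereas the linker Mlph was at 0.03 and not called. Of 6 genes that cut or sort PMEL, Bace2, a protease that releases its fibril-forming part, fell (−1.83) with Adam10 (−1.03), Furin rose (0.47), and Cd63 and Apoe, which help PMEL onto vesicles, were not called (−0.10 and −0.14). Bace2 stood at −3.06 in the libraries labelled shHIRA II and at −0.60 with shHIRA I, where it was not called (between hairpins −2.46, edgeR adjusted p = 4.56e-05). Adam10 was not called with shHIRA I either (−0.20, edgeR adjusted p = 0.590).

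Other ion and solute transporters of the melanosome and lysosome moved in both directions. Of 7, the chloride transporter Clcn7 (−0.49) and its partner Ostm1 (−0.77) fell, the cysteine importer Mfsd12 rose (0.62), and Atp7a, Tpcn2, Slc7a11 and Slc36a1 were not called (median of the 7 genes 0.25). Of 20 genes of the complexes that deliver cargo to melanosomes, 6 fell and 1 rose (median −0.12): Hps3 (−1.43), Rab32 (−1.05), Rab38 (−1.38) and Ap3b1 (−0.61) had the smallest adjusted p among the falls. Of 10 tested melanocyte regulators (median −0.32) none rose and 4 fell: Irf4 (−1.47), Kit (−1.73), Mitf (−1.21) and Mc1r (−0.55). Pax3 was at −0.09 and not called. Mitf was not called with shHIRA I (−0.53, edgeR adjusted p = 0.0809) and fell in the libraries labelled shHIRA II (−1.90, edgeR adjusted p = 8.80e-06). Between hairpins Mitf differed by −1.37 (edgeR adjusted p = 0.000659). The same 15.1% of all tested genes called lower and 14.2% called higher apply to these lists. Schwann cell markers summed to 89.4 to 340 TPM with shHIRA I, 155 to 179 TPM in the libraries labelled shHIRA II and 211 to 428 TPM with the control hairpins, and 4 of the 5 fell; their part in the falls above was not tested.

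**Figure D5:**
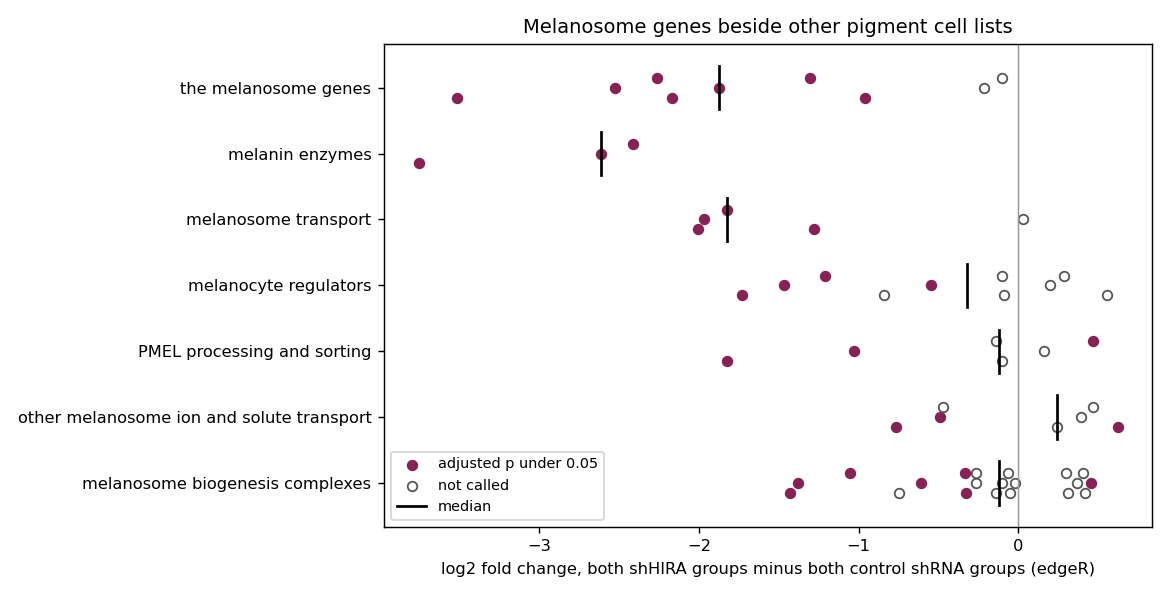
Log2 fold change of both shHIRA groups against both control shRNA groups (horizontal axis) for the 9 tested melanosome genes and 6 lists of other pigment cell genes, with filled points at an adjusted p under 0.05 and a bar at each median. The melanosome genes, the melanin enzymes and melanosome transport have medians of −1.87, −2.61 and −1.82, and the medians of the other lists lie between −0.32 and 0.25.

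The genes whose log2 CPM followed each melanosome gene most closely over all 20 libraries were taken by Pearson's r, as a description with no test, since the libraries fall into groups. Pmel was followed most closely by Slc24a5 (r = 0.981) and Lta4h (0.978), Slc24a5 by Aph1c (0.986) and 6330416G13Rik (0.982), and Tspan10 by Rab27a (0.993) and Lta4h (0.989). Slc45a2 and Gpr143 had St3gal4 as the nearest gene in common (0.961 and 0.960), followed by Gjb1 for Slc45a2 (0.956) and Mgll for Gpr143 (0.949). Mlana was nearest to Fam174b (0.960) and H2-DMb1 (0.955). Gpnmb was nearest to Sumf1 (0.953) and to the fibroblast marker Dcn (0.945), which rose with shHIRA I (1.34) and fell in the libraries labelled shHIRA II (−2.47). The low genes Oca2, with Socs6 (0.822) and Tnfrsf22 (0.804), and Trpm1, with Dedd (0.827) and Snx14 (0.825), had weaker nearest genes.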

How the data were processed

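Poly(A) RNA libraries of melb-a cells were compared from the authors' 2 gene tables. The submitters' processing notes name kallisto, edgeR, bcl2fastq and the build mm10. Which versions, annotation and strand option the authors chose is not given in the sources used here. Estimated counts were deposited, not whole, which equal the deposited TPM times 1 length per gene and 1 factor per library (10272 genes, log2 deviation at most 2e-09). The deposited TPM values sum to 793366 to 864638 per library. All 40 columns were assigned by name; those named as control were read as parental, and those named shHIRA without a numeral as the first Hira hairpin. Spreadsheet dates replace 27 gene names.

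Estimated counts were rounded and tested with edgeR 4.0.16 (quasi-likelihood F test, TMM, default low-count filter by group, group means of all 20 libraries, 13541 genes tested). A call is a p under 0.05 after Benjamini-Hochberg adjustment across the whole table. Log2 fold changes carry the SE of the fit. TPM gave levels. The fit was tested on simulated data. Alternatives were DESeq2 1.42.0, limma 3.58.1 on log2(TPM + 1) or log2(TPM + 0.1), other scaling and filters, a replicate block, the mitochondrial share, and leaving out libraries. The genes, the lists and the naming rule (the 10 genes, the 2 nearest genes of each by Pearson's r, and up to 4 called genes a list by adjusted p; other list members were named after their values were seen) were chosen with earlier results of these data known. Positions are from GENCODE M21 (GRCm38) and promoters from RefSeq (GRCm38.p6).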

Additional observations from a re-analysis of the deposited data

Results flagged for a closer look

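Within groups of 4 libraries, 4 of 50 sets of TPM values had 1 library far from the other 3 by Dixon's criterion on the gap to the nearest; chance gives about 1 in 20. Oca2 stood at 5.28 TPM in shHIRA I replicate 2 and at 0.379 to 1.21 TPM in the other 3. Trpm1 stood at 2.84 TPM in parental replicate 2 and at 0.541 to 0.875 TPM in the others. Tspan10 stood at 281 TPM in parental replicate 4 against 178 to 186 TPM, and Slc45a2 at 139.6 TPM in shLuciferase replicate 2 against 182 to 188 TPM.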

How the results depend on the processing

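The number of melanosome genes called stayed within 1.5 times the main count in 6 other scalings, filters and tools, with a mitochondrial covariate and with the 2 lowest-share libraries left out. With only the groups compared, 3 genes were called between hairpins (6 in the main fit) and 1 for transduction (0 in the main fit). Leaving out 1 library gave 7 to 8 calls for both Hira hairpins pooled, 5 to 7 for shHIRA I, 7 to 9 for the libraries labelled shHIRA II, 4 to 6 between hairpins, 0 between controls, 0 to 1 for transduction and 6 to 7 against parental cells. The same fits tested 13779 to 13880 genes. Of these, 1697 to 2386 were called lower and 1557 to 2295 higher in the pooled contrast. With shHIRA I the ranges were 907 to 1603 lower and 1258 to 1619 higher. For libraries labelled shHIRA II they were 1623 to 2871 and 1607 to 2508. Between hairpins they were 1123 to 2469 and 874 to 1961. Against parental cells they were 1239 to 1978 and 1184 to 1877, and for transduction 86 to 353 and 125 to 438. The replicate block gave 1 call for transduction (Gpr143, 0.77) and otherwise stayed within 1.5 times; under the block Mlana was called lower with shHIRA I (−0.62, edgeR adjusted p = 0.0152) and Oca2 was not called between hairpins (−1.99, edgeR adjusted p = 0.0504). The main fit did not take the replicate numbers as a pairing. Of 40 same-numbered pairs, 17 had correlated deviations over 0.1 (median 0.0669). Among the 4 libraries of the other group, the same number was closest in 21 of 40 cases. That is more than the 1 in 4 of unrelated numbers, so main-fit p-values do not allow for a possible link between same-numbered libraries. The replicate block above is the fit that does. Oca2 with shHIRA I ranged from −0.21 (without shHIRA I replicate 2) to 1.45 when 1 library was left out, and Oca2 turned to 0.17 in the libraries labelled shHIRA II with the mitochondrial covariate; the cause was not tested. For Slc24a4 the TPM difference was −0.0906 without the 2 libraries of lowest mitochondrial share, with an exact permutation adjusted p of 0.0727, and −0.123 to −0.0926 when 1 library was left out. Counts over all genes in the pooled contrast were 2041 lower and 1923 higher, and 1323 lower and 2242 higher with limma on log2(TPM + 1). Few counts limit Oca2, Trpm1 and Slc24a4, and 4 libraries a group limit all tests.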

Other observations

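Of 18 listed paralogs 13 had enough counts to be tested, and in the contrast pooled over both Hira hairpins 2 fell and 1 rose, beside 15.1% of all tested genes called lower and 14.2% higher (median log2 fold change −0.23). The tetraspanin Tspan5, of the same subgroup as Tspan10, fell (−0.66, edgeR adjusted p = 7.38e-05), Tspan17 of that subgroup rose (0.56, edgeR adjusted p = 0.022), and Tspan14, Tspan15 and Tspan33 were not called. Slc45a4 fell (−0.48, edgeR adjusted p = 0.00568), and Slc45a3 was not called (−0.52). None of the 6 tested relatives of Trpm1 was called in this contrast by edgeR. The difference between paralogs and the melanosome genes was not tested.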
